A study of Mus musculus with 6 samples.

Results

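The 36 genes described here are the core of the cellular response to low oxygen and of glycolysis, together with the enzymes and transporters that handle its end products. They were taken by name from a count table of 24537 gene rows. All 36 had a row, and 34 of them were among the 13101 genes with enough counts to test. Eno1 and Car9 were not.

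Cells answer a shortage of oxygen through the hypoxia-inducible factors (HIF). Each is a pair of an oxygen-labile alpha subunit (Hif1a or Epas1) and a stable partner, and prolyl hydroxylases mark the alpha subunit for destruction while oxygen is present. Because this control acts on protein stability, the mRNA of an alpha subunit need not follow HIF activity. Stabilised HIF binds short elements with the core letters ACGTG or GCGTG and raises genes of glucose uptake, glycolysis, lactate export, mitophagy and angiogenesis. In brain tumors these genes are known for high expression around necrotic and poorly perfused tissue, and many glycolytic genes are also expressed at a high level with oxygen present.

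The RNA came from 6 brain tumors of mice, grown after in utero electroporation, which uses an electric pulse to bring plasmids into cells of the embryonic brain. All 6 were in CD-1 IGS mice and carried the mutant PdgfraD482V and DNp53, a dominant-negative p53. Of the 6 titles, 3 add FOXR2, a forkhead transcription factor, and the other 3 say Control. The labels give no age, no promoter for the constructs and no statement that samples of a title are separate animals, so p-values measure only the spread between these samples. A sheet deposited with the counts assigns all 6 libraries the other way round. The mouse Foxr2 row, which an introduced FOXR2 sequence need not reach, had 22, 1 and 7 counts under the title FOXR2 and 4, 10 and 7 under Control, with overlap (exact two-sided permutation p = 0.8 on log2 CPM, n = 3 each). That row does not settle which source is correct. The groups are therefore named by their titles, and every direction between titles is inverted if the sheet holds.

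Each library held 13429489 to 17927025 counts. Levels are in CPM, which are counts per library scaled by TMM to a shared size, and 3 counts corresponded to 0.174 to 0.219 CPM. The oligodendrocyte lineage markers Pdgfra (2018 to 3599 CPM), Olig2 (446 to 813 CPM) and Sox10 (331 to 759 CPM) were abundant in all 6 libraries. All 6 carried PdgfraD482V, and whether its reads were counted in the Pdgfra row was not tested. The Pdgfra level therefore need not reflect lineage. FOXR2 replicate 2 stood apart: 15 microglia and macrophage markers summed to 1761 CPM there and to 43.8 to 66.5 CPM in the other 5 libraries. In RNA pooled from many cells, fewer cells of a type and less RNA per cell cannot be told apart.

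Promoter sequences were available in the RefSeq table (build GRCm38.p6) for 32 of the 36 members. Epas1, Ndrg1, Bnip3l and Slc2a3 were not among them. The 250 bases before each start site were searched for ACGTG and GCGTG on both strands, so CACGT and CACGC were also read as matches, and overlapping matches were merged into 1 place. At least 1 place was found for 30 of the 32 members (93.8%), against 62% of 10093 tested genes with a promoter in the table. At least 2 places were found for 21 members (65.6%), against 27.8% of those genes. Counted by 250-base window, since a gene can have several start sites, 35 of 44 member windows (79.5%) and 38.6% of all 32851 windows held a place. The 32851 windows were not limited to tested genes, unlike the 62% and 27.8% above, so this contrast is between less similar sets. Of the members that moved most alike between libraries, Bnip3, Ldha and Pgam1 had the most places, while Gpi1 and Tpi1, which also belong to that group, had none. Of the 32 members only Gpi1 and Tpi1 lacked a match. Outside that group, Ankrd37, Pfkp, P4ha1, P4ha2 and Slc16a1 had 3 places each, as many as Ldha and Pgam1. Kdm3a is shown as the member called between titles. Stretches of Bnip3, Ldha, Pgam1, Tpi1 and Kdm3a are printed in the gene's own direction, with matched letters in capitals. They lie at chr7:138909522-138909638 (minus strand, Bnip3), chr7:46845644-46845789 (plus, Ldha), chr19:41911681-41911802 (plus, Pgam1), chr6:124814297-124814396 (minus, Tpi1) and chr6:71632930-71632954 (minus, Kdm3a).
Bnip3: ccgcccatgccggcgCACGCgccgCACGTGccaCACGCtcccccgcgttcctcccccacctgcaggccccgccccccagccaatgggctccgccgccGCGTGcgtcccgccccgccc
Ldha: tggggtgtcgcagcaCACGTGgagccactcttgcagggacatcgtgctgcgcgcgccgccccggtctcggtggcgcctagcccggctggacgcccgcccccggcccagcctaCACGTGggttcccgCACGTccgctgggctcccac
Pgam1: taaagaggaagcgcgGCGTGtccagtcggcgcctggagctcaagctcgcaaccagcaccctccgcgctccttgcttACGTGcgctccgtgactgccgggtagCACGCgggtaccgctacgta
Tpi1: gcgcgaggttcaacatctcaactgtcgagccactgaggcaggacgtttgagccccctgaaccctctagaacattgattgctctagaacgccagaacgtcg
Kdm3a: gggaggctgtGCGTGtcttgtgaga
The Bnip3 stretch runs from 132 to 16 bases before the start site and holds 4 places. Ldha holds 3 places from 160 to 15 bases before its start, and Pgam1 holds 3 from 190 to 69 bases before its own. The Tpi1 stretch, 238 to 139 bases before the start, is shown for contrast with no match, and the whole 250 bases had none. The Kdm3a stretch holds the single match of that gene and lies in an annotated exon. A match describes letters and does not show that a factor binds there.

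Levels of glycolytic and mitochondrial hypoxia genes ranged more widely among libraries of 1 title than the means of the titles differed. FOXR2 replicate 1 and Control replicate 3 were high and FOXR2 replicate 2 was low for most of these enzymes. Of the 34 tested members, 23 had their highest level in FOXR2 replicate 1, where 17% of all tested genes did, and none had it in FOXR2 replicate 2 (15.4% of all genes). The lowest level of 16 members was in FOXR2 replicate 2 (14.4% of all genes). Both held for 13 members, against 2.44% of all tested genes: Egln1, Gpi1, Pfkl, Aldoa, Tpi1, Gapdh, Pgk1, Pgam1, Pkm, Ldha, Pdk1, Bnip3 and Bnip3l. For 18 members the highest levels of the 6 were those of FOXR2 replicate 1 and Control replicate 3, against 5.12% of all genes. The median member lay 0.68 above its own mean over the 6 libraries in FOXR2 replicate 1, 0.36 below it (log2 value -0.36) in FOXR2 replicate 2, and 0.14 above it in FOXR2 replicate 3. In Control replicates 1, 2 and 3 the median deviation was -0.35, -0.25 and 0.30. The same median over all tested genes stayed between -0.02 and 0.03, but scaling between libraries keeps that value near 0. Smaller gene lists differed among themselves. In FOXR2 replicates 1 and 2 the median was -1.88 and 2.25 for tested markers of mature oligodendrocytes. It was 0.03 and -0.01 for genes of pyruvate dehydrogenase and the citric acid cycle. These are descriptions of 6 libraries and were not tested, and members of 1 pathway are not independent of each other. The libraries combined in a pattern were picked from the members' own values, which can widen the distance from the share of all genes.

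**Figure D1:**
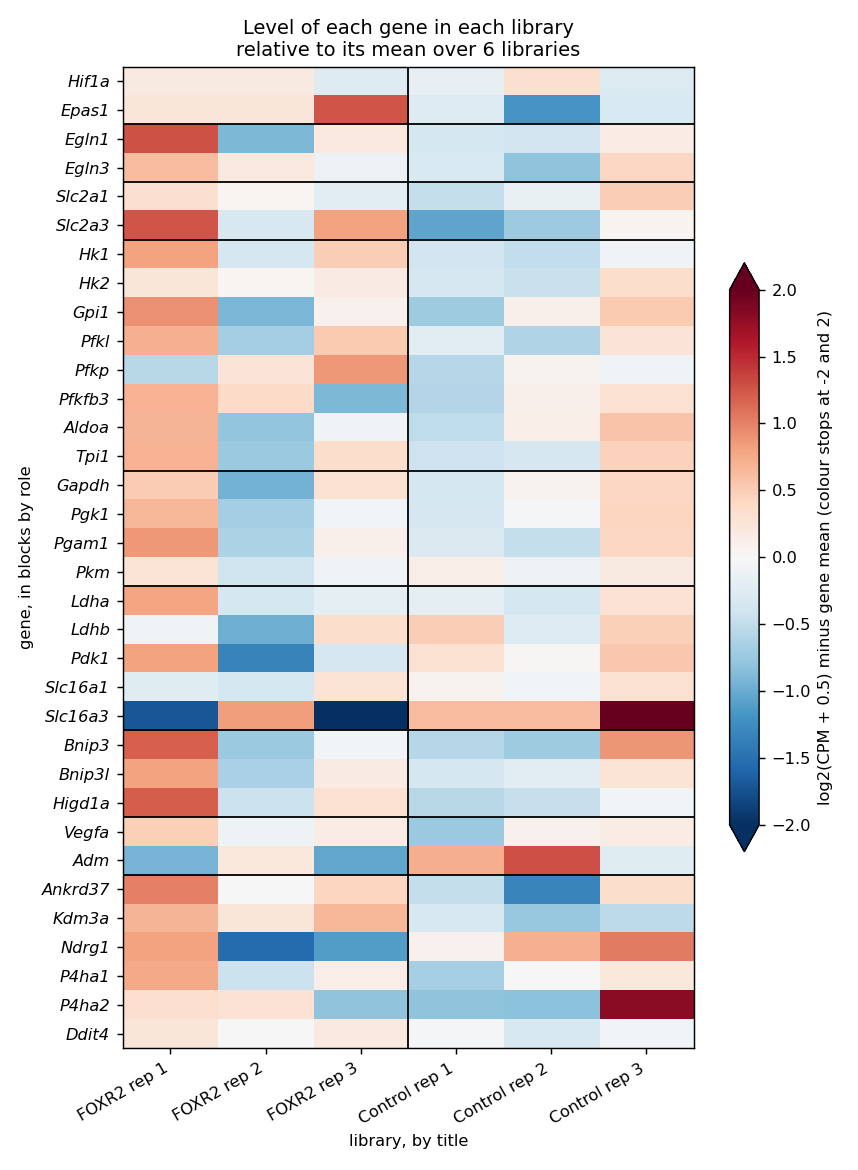
Level of 34 tested genes (rows, in blocks by role) in each library (columns, by title), as log2(CPM + 0.5) minus the gene's mean over the 6 libraries, with red above and blue below the mean and colours capped at -2 and 2. The FOXR2 replicate 1 column is mostly red and the FOXR2 replicate 2 column mostly blue from Gpi1 to Ldha, apart from Pfkp and Pfkfb3, while Slc16a3, Adm and Kdm3a follow other orders.

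Between titles, 1 of the 34 tested members passed the test: Kdm3a, higher in the libraries titled FOXR2. No member was lower. Of all 13101 tested genes, 2.29% were called in either direction, 0.908% of them higher and 1.38% lower, by edgeR's quasi-likelihood test at an adjusted p under 0.05. By DESeq2 3 members and 13.9% of genes were called. At an unadjusted p under 0.05 in edgeR there were 3 members (Kdm3a, Epas1 and Slc2a3) and 3257 genes (24.9%). The fitted difference was above 0 for 24 members and below 0 for 10, with a median log2 fold change of 0.26 where all tested genes had a median of 0.01. Which library was left out set that median: it was -0.10 without FOXR2 replicate 1 (13 members above 0) and 0.49 without Control replicate 3 (26 above 0). Library values did not overlap between titles for 3 members, Kdm3a, Epas1 and Ddit4, and for 30.3% of all tested genes.

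**Figure D2:**
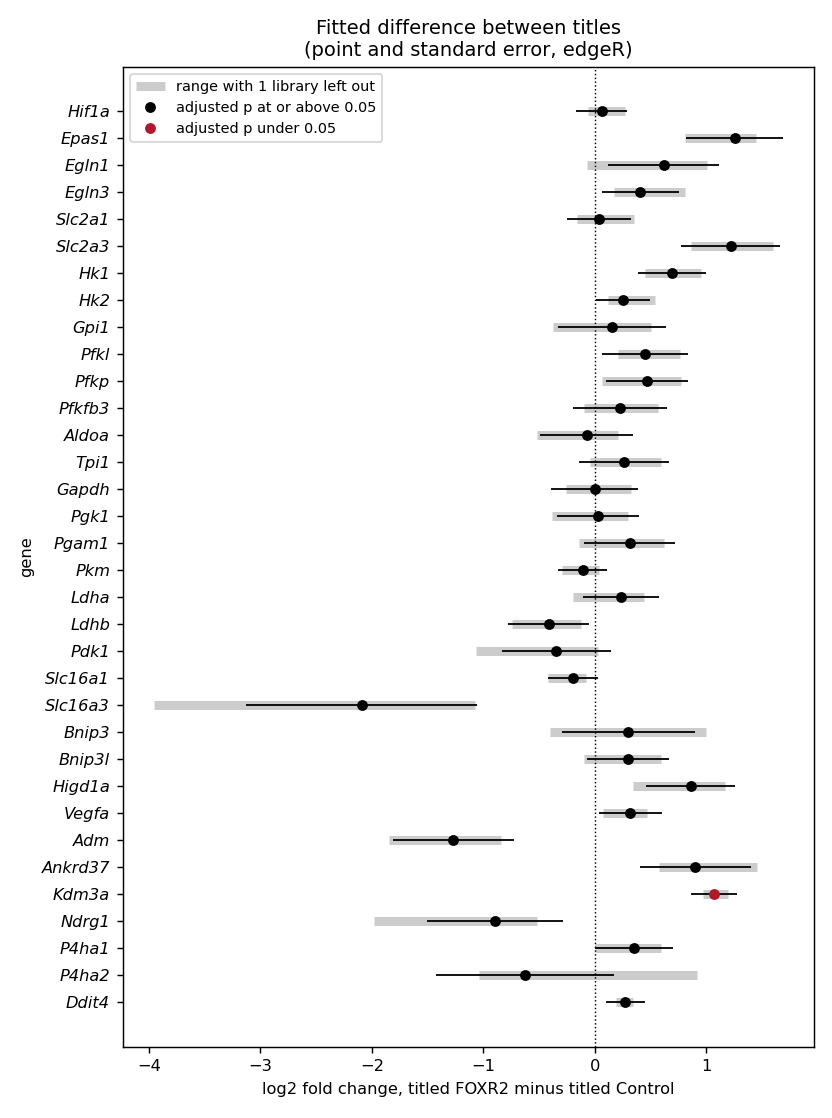
Fitted log2 fold change of each tested gene, titled FOXR2 minus titled Control, with its standard error as a thin line and the range of the value when 1 library is left out as a grey bar. Kdm3a, in red, is the gene with an adjusted p under 0.05, and the grey bars of most glycolytic genes span 0.

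Kdm3a encodes a histone demethylase that removes methyl groups from lysine on histone H3 and needs oxygen to work. Its level was 156, 116 and 154 CPM across FOXR2 replicates 1 to 3, and 77.9, 57.4 and 67.5 CPM in Control replicates 1 to 3. Every library titled FOXR2 was above every library titled Control. The means were 142 ± 22.9 and 67.6 ± 10.2 CPM (SD, n = 3 each), and the log2 fold change was 1.07 ± 0.21 (SE here and for every log2 fold change), an adjusted p of 0.0489 by edgeR's quasi-likelihood test. The call sat at the threshold. The adjusted p was 0.0504 to 0.185 when any 1 of the 6 libraries was left out, with a log2 fold change of 0.97 to 1.20. Under DESeq2 it was 0.000276, and under the other scalings and limma-voom it was at or above 0.0503.

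**Figure D3:**
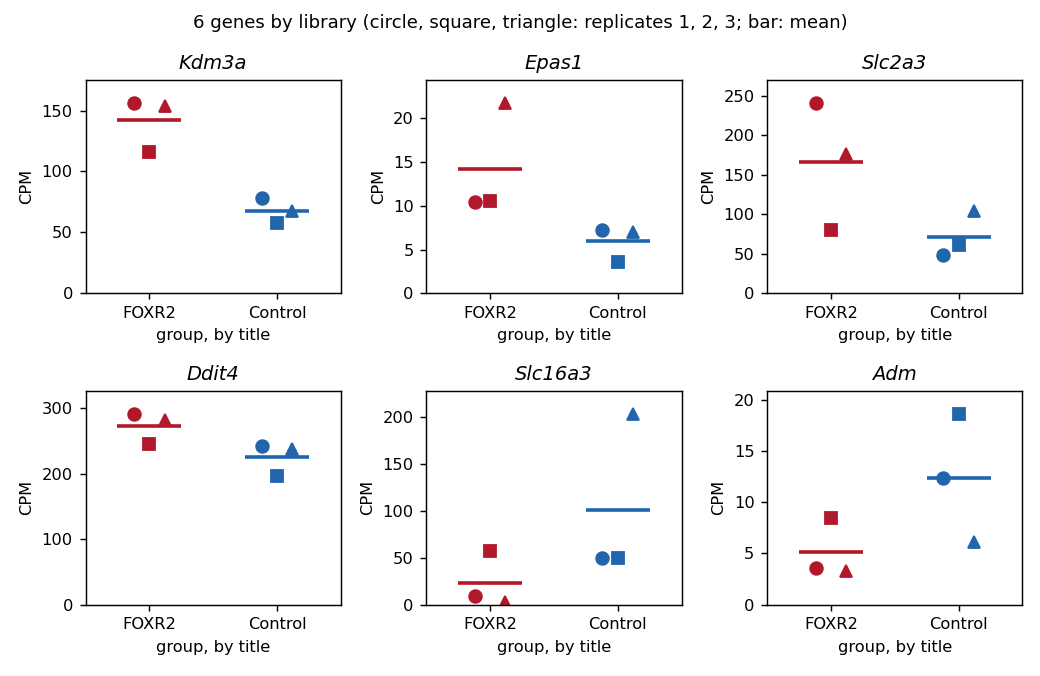
CPM of 6 genes in each library, on linear axes from 0, with libraries titled FOXR2 in red and titled Control in blue, and bars at the group means. Kdm3a, Epas1 and Ddit4 do not overlap between titles, while Slc2a3, Slc16a3 and Adm do.

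The 2 alpha subunits differed in level and in pattern. Hif1a stood at 206, 207 and 152 CPM in FOXR2 replicates 1 to 3 and at 163, 228 and 150 CPM in Control replicates 1 to 3. These groups overlapped, and the log2 fold change was 0.06 ± 0.23 (edgeR adjusted p = 0.894). Epas1, whose product pairs with the same partner and is best known from endothelium and other specialised cells, was at 10.4, 10.5 and 21.7 CPM in the libraries titled FOXR2. In those titled Control it was at 7.26, 3.58 and 7.03 CPM. The highest library was FOXR2 replicate 3, and no Control library reached the lowest library titled FOXR2. The log2 fold change of 1.26 ± 0.43 had an edgeR adjusted p of 0.138, and 0.0472 by DESeq2. Per kilobase of transcript, the mean level over all libraries was 39.1 CPM for Hif1a and 1.83 CPM for Epas1.

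Prolyl hydroxylases are both part of the control of HIF and its targets. Egln1 reached 684 CPM in FOXR2 replicate 1, while FOXR2 replicates 2 and 3 were at 151 and 324 CPM. The Control replicates 1 to 3 were at 222, 218 and 314 CPM. FOXR2 replicates 1 and 2 thus held both the highest and the lowest of the 6 values. The log2 fold change was 0.62 ± 0.50 (edgeR adjusted p = 0.481), and it was -0.07 without FOXR2 replicate 1. Egln3, the member of this family with the strongest known induction by hypoxia, was at 77.1, 57.5 and 45.9 CPM in the libraries titled FOXR2. It was at 40.3, 28.4 and 67.2 CPM in those titled Control, and the groups overlapped (edgeR adjusted p = 0.502).

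Glucose enters brain cells mainly through Slc2a1 and, in neurons and some tumor cells, Slc2a3. Slc2a1 was at 133, 109 and 90.8 CPM in FOXR2 replicates 1 to 3 and at 76.8, 96.3 and 151 CPM in Control replicates 1 to 3, with a log2 fold change of 0.04 ± 0.28 (adjusted p by edgeR = 0.946). Slc2a3 was at 241, 80.5 and 176 CPM in the libraries titled FOXR2 and at 48.6, 60.8 and 104 CPM in those titled Control. FOXR2 replicate 2 lay below Control replicate 3, so the groups overlapped. The log2 fold change was 1.22 ± 0.44, with an adjusted p of 0.152 by edgeR and 0.0384 by DESeq2. Within each library, the CPM of Slc2a3 divided by that of Slc2a1 was 1.82, 0.738 and 1.94 in FOXR2 replicates 1 to 3 and 0.632, 0.632 and 0.693 in Control replicates 1 to 3. The ratio was higher in each of the 3 libraries titled FOXR2 than in any Control library, by 1.07 on the log2 scale. An exact two-sided permutation test gave p = 0.1, the smallest that 3 against 3 allows, and 0.45 adjusted over the 9 gene pairs compared.

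The upper stage of glycolysis spends ATP to turn glucose into triose phosphates. The 8 genes of this stage summed to 11787, 4252 and 7767 CPM in FOXR2 replicates 1 to 3 and to 4894, 6878 and 9746 CPM in Control replicates 1 to 3. The extremes were again FOXR2 replicates 1 and 2. None of the 8 passed the test, and 7 were fitted above 0. Hexokinases trap glucose in the cell, and Hk1 had the smallest adjusted p of the 8. It was at 790, 356 and 641 CPM in the libraries titled FOXR2 and at 347, 324 and 434 CPM in those titled Control, with a log2 fold change of 0.69 ± 0.31 (adjusted p by edgeR = 0.211). Hk2, the hexokinase often raised in tumors, was at 116, 102 and 110 CPM against 78.0, 72.1 and 125 CPM. Per kilobase, Hk1 stood at 113 CPM and Hk2 at 18.2 CPM.

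Phosphofructokinase makes the committed step. Its liver-type gene Pfkl was at 485, 186 and 428 CPM in FOXR2 replicates 1 to 3 and at 254, 196 and 353 CPM in Control replicates 1 to 3. The platelet-type gene Pfkp was at 52.5, 92.5 and 142 CPM and at 52.3, 81.6 and 73.6 CPM, and it was at its lowest in FOXR2 replicate 1 among the libraries titled FOXR2, where Pfkl was highest. Pfkp divided by Pfkl therefore ran from 0.108 in FOXR2 replicate 1 to 0.498 in FOXR2 replicate 2. The mean log2 ratio was -1.93 in both titles (exact permutation p = 1.0, n = 3 each). Pfkfb3, which makes the activator of phosphofructokinase, ranged from 41.8 CPM in FOXR2 replicate 3 to 127 CPM in FOXR2 replicate 1.

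Gpi1, the isomerase between both kinases, was at 3748, 1052 and 2119 CPM in the libraries titled FOXR2 and at 1218, 2139 and 2849 CPM in those titled Control. Its highest level was 3.56 times its lowest. Aldoa, which splits the hexose, was at 4097, 1488 and 2411 CPM and at 1797, 2816 and 3802 CPM. Tpi1, which interconverts the trioses, was at 2371, 873 and 1874 CPM and at 1096, 1166 and 2014 CPM. For all 3 of these enzymes FOXR2 replicate 1 was the highest library and FOXR2 replicate 2 the lowest. Their log2 fold changes were 0.16 ± 0.49, -0.07 ± 0.41 and 0.26 ± 0.40, none of them called by edgeR.

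**Figure D4:**
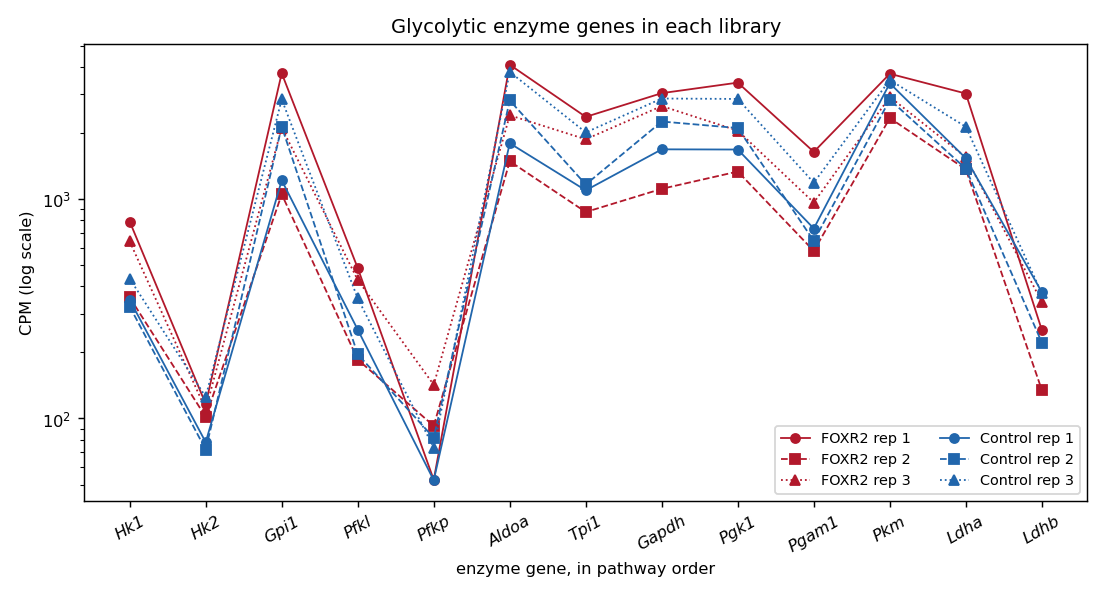
CPM on a log axis for 13 glycolytic and lactate dehydrogenase genes in pathway order, 1 line per library, with libraries titled FOXR2 in red and titled Control in blue. From Gpi1 to Ldha the line of FOXR2 replicate 1 is at or near the top and that of FOXR2 replicate 2 at the bottom, apart from Pfkp, and the other 4 lie between them.

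The lower stage recovers ATP and ends in pyruvate. Its 5 genes summed to 11807, 5372 and 8596 CPM in FOXR2 replicates 1 to 3 and to 7477, 7852 and 10415 CPM in Control replicates 1 to 3, in the same order of libraries within each title as the upper stage. Gapdh, widely used as a reference gene, was at 3041, 1114 and 2656 CPM and at 1686, 2258 and 2875 CPM. The group means were 2271 ± 1020 and 2273 ± 594 CPM (SD, n = 3 each), with a log2 fold change of -0.00 ± 0.39 that was above 0 under RLE factors, total-count scaling, the length and GC offset and DESeq2. Its highest library still held 2.73 times the level of its lowest, both of them titled FOXR2.

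Pgk1, the first ATP-yielding kinase of the pathway, was at 3396, 1336 and 2051 CPM in the libraries titled FOXR2 and at 1683, 2109 and 2861 CPM in those titled Control. Pgam1, the mutase after it, was at 1642, 580 and 964 CPM and at 734, 644 and 1188 CPM, and had the smallest adjusted p of this stage (0.673, edgeR). Pkm, the pyruvate kinase gene, was the steadiest enzyme of the stage, at 3728, 2341 and 2924 CPM and at 3373, 2841 and 3491 CPM. Its highest level was 1.59 times its lowest. The counts do not separate its splice forms.

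Eno1, the main enolase, had 0.179 to 0.420 CPM, close to the 3-count floor in every library. The row Eno1b, a retrogene that shares 70.3% of the 51-base windows of the Eno1 transcript, held 458, 233 and 501 CPM in FOXR2 replicates 1 to 3 and 400, 315 and 529 CPM in Control replicates 1 to 3. That row was looked up after the values of Eno1 were seen, and its log2 fold change was -0.06 ± 0.33 (edgeR adjusted p = 0.925). Whether reads of both enolase genes were counted in 1 row was not tested. A read is 51 bases here, and windows of that length in GENCODE transcripts were compared for all members. The share of windows also found in another gene was 82.4% for Gapdh, 67.9% for Pgk1, 41.4% for Pgam1, 33.7% for Pkm and 26.3% for Ldhb. It was 23.2% for Bnip3l, 21.6% for Bnip3, 18.7% for Gpi1, 15.9% for Ldha, 12.9% for Aldoa, 7.38% for Higd1a and 7.19% for Tpi1. Counts of these 12 genes and of Eno1 are uncertain for that reason. For 22 members under 1% was shared, Kdm3a with none among them. Of the 21 tested members among these 22, 12 were highest in FOXR2 replicate 1 and 5 lowest in FOXR2 replicate 2. Of the 13 members with both, 10 shared at least 5% of their windows, and 3 (Egln1, Pfkl and Pdk1) shared under 1%.

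Pyruvate is turned to lactate by lactate dehydrogenase or kept from oxidation by Pdk1, and lactate leaves through Slc16a1 and Slc16a3. Ldha, the subunit that favours lactate formation, was at 3029, 1366 and 1552 CPM in FOXR2 replicates 1 to 3 and at 1536, 1377 and 2137 CPM in Control replicates 1 to 3. Ldhb, the subunit that favours pyruvate, was at 253, 135 and 340 CPM and at 377, 222 and 372 CPM. Ldha divided by Ldhb was 11.97, 10.1 and 4.57 against 4.08, 6.21 and 5.75, so FOXR2 replicates 1 and 2 exceeded all Control libraries and FOXR2 replicate 3 did not (exact permutation p = 0.3, n = 3 each, 0.54 adjusted over 9 pairs). Pdk1, the kinase that switches off pyruvate dehydrogenase, was at 153, 34.4 and 69.0 CPM and at 108, 89.5 and 128 CPM. The spread of Pdk1 within the title FOXR2 covered the whole range of the Control libraries.

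Slc16a3, the lactate exporter induced by hypoxia, had the widest range of any tested member. It was at 9.46, 57.8 and 3.50 CPM in FOXR2 replicates 1 to 3 and at 49.5, 49.5 and 203 CPM in Control replicates 1 to 3. FOXR2 replicate 1, which was highest for most glycolytic genes, was here the second lowest library, and the highest library held 58.1 times the level of the lowest. The log2 fold change was -2.09 ± 1.04 (edgeR adjusted p = 0.259), and it was -3.95 without FOXR2 replicate 2 (adjusted p = 0.0704) and -1.08 without Control replicate 3. Slc16a1, the more widely expressed transporter, was at 46.4, 42.8 and 66.3 CPM and at 57.7, 52.9 and 67.7 CPM. The ratio of Slc16a3 to Slc16a1 thus ran from 0.0529 in FOXR2 replicate 3 to 3.004 in Control replicate 3.

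Bnip3 and Bnip3l mark mitochondria for removal, and Higd1a is a small protein of the respiratory chain induced by low oxygen. All 3 were highest in FOXR2 replicate 1. Bnip3 was at 459, 119 and 193 CPM in the libraries titled FOXR2 and at 135, 122 and 368 CPM in those titled Control. Bnip3l was at 278, 101 and 179 CPM and at 125, 135 and 193 CPM. Higd1a was at 248, 79.5 and 133 CPM and at 72.7, 77.7 and 103 CPM, with a log2 fold change of 0.86 ± 0.40 (adjusted p by edgeR = 0.233). The high value of Control replicate 3 was marked for Bnip3 and slight for Higd1a. Without FOXR2 replicate 1 the log2 fold change of Bnip3 was -0.41, and without Control replicate 3 it was 1.00.

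Of the targets that act outside the cell, Vegfa and Adm had different orders of libraries. Vegfa, the growth factor for vessels, was at 144, 96.4 and 114 CPM in FOXR2 replicates 1 to 3 and at 61.3, 109 and 114 CPM in Control replicates 1 to 3. Adm, the vasodilator adrenomedullin, was at 3.59, 8.48 and 3.28 CPM and at 12.4, 18.6 and 6.10 CPM. The highest Adm level was in Control replicate 2, and FOXR2 replicates 1 and 3 were the lowest. Its log2 fold change was -1.27 ± 0.54 (edgeR adjusted p = 0.201). Car9, the membrane carbonic anhydrase much used as a marker of hypoxia, had 0, 1.39 and 0.073 CPM and 0.360, 0.238 and 0.523 CPM, and only FOXR2 replicate 2 was above 1 CPM.

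**Figure D5:**
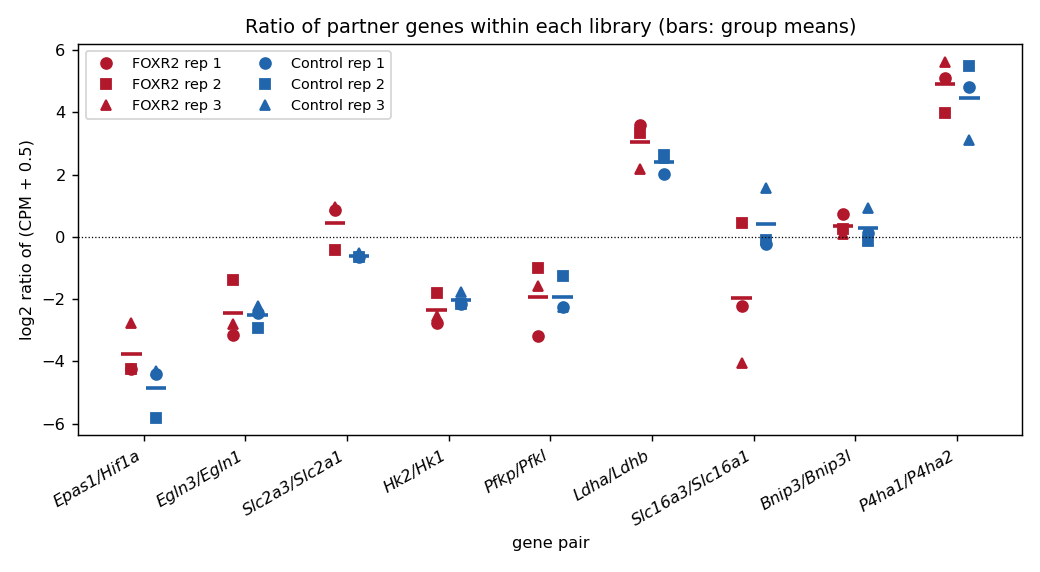
Log2 ratio of (CPM + 0.5) of partner genes within each library for 9 pairs, with libraries titled FOXR2 in red, titled Control in blue, and bars at group means. The groups do not overlap for Epas1/Hif1a and Slc2a3/Slc2a1, and Slc16a3/Slc16a1 has the widest spread.

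The remaining targets showed several orders. Ankrd37, a small ankyrin-repeat protein, was at 18.7, 9.17 and 12.4 CPM in the libraries titled FOXR2 and at 6.42, 3.34 and 11.8 CPM in those titled Control (edgeR adjusted p = 0.308). Ndrg1, a stress-responsive gene also expressed in mature oligodendrocytes, was at 141, 27.2 and 36.8 CPM and at 85.1, 132 and 165 CPM. Its log2 fold change was -0.90 ± 0.61 (edgeR adjusted p = 0.406), and -1.98 without FOXR2 replicate 1 (adjusted p = 0.0642). Markers of mature oligodendrocytes summed to 220, 5172 and 1434 CPM and to 1693, 285 and 3888 CPM. Their order was unlike that of Ndrg1 in replicates 1 and 2 of both titles, and their part in its levels was not tested.

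Collagen prolyl hydroxylases let collagen fold. P4ha1 was at 320, 140 and 208 CPM in FOXR2 replicates 1 to 3 and at 119, 187 and 218 CPM in Control replicates 1 to 3. P4ha2 was at 8.74, 8.48 and 3.72 CPM and at 3.72, 3.64 and 25.0 CPM, with Control replicate 3 far above the rest. Its log2 fold change was -0.63 ± 0.80 with all libraries and 0.92 without Control replicate 3. Ddit4, an inhibitor of mTOR signalling, was at 291, 245 and 283 CPM and at 242, 197 and 238 CPM. The titles did not overlap, but the lowest library titled FOXR2 and the highest titled Control were nearly equal, and the log2 fold change of 0.27 ± 0.17 was not called (edgeR adjusted p = 0.378).

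Of the 9 pairs of partner genes, none passed the exact permutation test, whose smallest p is 0.1. Epas1/Hif1a differed by 1.09 on the log2 scale without overlap (p = 0.1, exact permutation, 0.45 adjusted). Egln3/Egln1, Bnip3/Bnip3l and Pfkp/Pfkl differed by 0.08, 0.06 and 0.00, with values of 0.9 to 1.0 in the same exact permutation test. Hk2/Hk1 differed by -0.34 (exact permutation p = 0.3) and P4ha1/P4ha2 by 0.43 (exact permutation p = 0.6).

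Other genes of the HIF pathway were taken from a list of 9, of which 8 were tested. One was called, Arnt2, a stable partner of the alpha subunits that is abundant in neurons. It was at 285, 192 and 210 CPM in FOXR2 replicates 1 to 3 and at 110, 96.9 and 90.3 CPM in Control replicates 1 to 3, with no overlap. The log2 fold change was 1.21 ± 0.21 (edgeR adjusted p = 0.0437). The adjusted p was 0.0638 with a length and GC offset and 0.0726 to 0.172 when FOXR2 replicate 1, FOXR2 replicate 3 or any Control library was left out. Arnt, the partner used in most tissues, was at 33.0 to 52.1 CPM with a log2 fold change of 0.05 ± 0.22. Hif1an, the hydroxylase that blocks HIF's activation domain, differed by -0.56 ± 0.21 on the log2 scale (edgeR adjusted p = 0.157). Siah1a, a ubiquitin ligase that acts on prolyl hydroxylases, had 0.66 ± 0.26 (edgeR adjusted p = 0.178). Among mature neuron markers, Syt1 was at 153, 61.3 and 31.6 CPM and at 7.44, 4.35 and 2.73 CPM, and Syn1 at 49.5, 49.1 and 72.5 CPM and at 24.3, 26.8 and 17.3 CPM. Both were called higher by edgeR (adjusted p = 0.0436 and 0.0489). Of the 9 tested neuron markers 6 were fitted above 0 and 3 below, and Nefm (-1.73 ± 0.51) and Nefl (-1.06 ± 0.51) were lower without overlap but not called. All 10 neuron markers summed to 324, 195 and 134 CPM and to 148, 149 and 201 CPM, and their part in the levels of Arnt2, Slc2a3 and Kdm3a was not tested.

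A further 39 hypoxia targets, 35 of them tested, had none called, with 19 fitted above 0, 16 below and a median log2 fold change of 0.15. Car12, another carbonic anhydrase, was at 0.261, 5.50 and 0.876 CPM in FOXR2 replicates 1 to 3 and at 9.65, 12.2 and 16.6 CPM in Control replicates 1 to 3. The titles did not overlap (log2 fold change -2.52 ± 0.94, edgeR adjusted p = 0.160), and the adjusted p was 0.0437 without FOXR2 replicate 2 and 0.0307 by DESeq2. Mif, a cytokine, had -0.64 ± 0.24 and Insig2, a regulator of sterol synthesis, 0.59 ± 0.24, neither of them called. Fam162a, a mitochondrial target of HIF picked here after its values were seen, was at 341, 89.3 and 185 CPM and at 133, 148 and 227 CPM, highest and lowest in the same libraries as Bnip3l.

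Of 29 other glycolytic isoenzymes and regulators, 19 were tested and none was called. The smallest adjusted p was that of Slc2a10, a minor glucose transporter, at 0.443 to 1.501 CPM in the libraries titled FOXR2 and 2.56 to 4.35 CPM under the title Control. Its log2 fold change was -1.83 ± 0.55, with an adjusted p of 0.106 by edgeR and 0.0446 by DESeq2. Tigar, a phosphatase that slows glycolysis, had 0.49 ± 0.23 and Mpc1, a subunit of the mitochondrial pyruvate carrier, had 0.35 ± 0.21. Routes that compete for glucose carbon had no called gene either. In the pentose phosphate pathway 6 of 7 genes were fitted below 0, where 6453 of all 13101 tested genes were. G6pdx, its first enzyme, was at 125, 100 and 104 CPM against 221, 230 and 165 CPM, with no overlap (log2 fold change -0.90 ± 0.20, edgeR adjusted p = 0.0611, DESeq2 0.00422). Tkt and Rpia, of its later steps, had -0.28 ± 0.17 and -0.24 ± 0.25.

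In pyruvate dehydrogenase and the citric acid cycle, 12 of 21 tested genes were fitted below 0 and none was called. Idh3b, a subunit of isocitrate dehydrogenase, was at 117, 107 and 123 CPM in FOXR2 replicates 1 to 3 and at 186, 208 and 205 CPM in Control replicates 1 to 3. Its log2 fold change was -0.79 ± 0.16 (adjusted p = 0.0534 by edgeR and 0.000668 by DESeq2). Sdhc and Sdhd, membrane subunits of succinate dehydrogenase, had -0.54 ± 0.16 and -0.52 ± 0.19, with edgeR adjusted p of 0.109 and 0.150. The high level of glycolytic genes in FOXR2 replicate 1 did not extend to this list, which summed to 3575, 3371 and 3239 CPM and to 3672, 3946 and 3439 CPM.

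Markers of other cells were set beside these levels. Of 12 endothelial markers 5 were tested, their sum was 12.2 to 34.7 CPM, and 6 or 7 of the 12 had fewer than 3 counts in each library except FOXR2 replicate 2, where 1 did. The hemoglobin rows were at 0 in every library. Pericyte markers summed to 14.3 to 34.4 CPM, much of it from Notch3. That gene was at 22.8, 9.36 and 33.1 CPM in FOXR2 replicates 1 to 3 and at 13.6, 20.9 and 12.8 CPM in Control replicates 1 to 3. Anpep reached 9.49 CPM in FOXR2 replicate 2 and 12.1 CPM in Control replicate 3. Rgs5, Kcnj8, Abcc9, Higd1b and Vtn had too few counts to test and did not exceed 0.657 CPM in any library. Microglia markers were high in FOXR2 replicate 2, the library with the lowest level of 16 members, and their part in those levels was not tested. Astrocyte markers summed to 801, 617 and 1818 CPM in FOXR2 replicates 1 to 3 and to 835, 603 and 743 CPM in Control replicates 1 to 3, and without Aldoc, a glycolytic gene at 1150 CPM in FOXR2 replicate 3, to 550, 490 and 668 CPM and to 446, 350 and 360 CPM. Of the 8 astrocyte markers 5 were fitted above 0, and of these Slc1a2 was called higher (edgeR adjusted p = 0.0379). Aqp4, Gja1 and Aldh1l1 were fitted below 0, and Aldh1l1 did not overlap between titles (log2 difference -1.71 ± 0.62, edgeR adjusted p = 0.150). Syt1, Syn1 and Slc1a2 each lost the call when any 1 Control library was left out (edgeR adjusted p of 0.0581 to 0.170). Without FOXR2 replicate 2 the median log2 fold change of the members was 0.44, with 27 of 34 above 0. Over all genes, leaving out that library gave 123 higher and 82 lower calls, where leaving out any other 1 gave 1 to 9 higher and 0 or 1 lower.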

How the data were processed

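Poly(A)-selected RNA of 6 tumor samples was sequenced as single 51-base reads with a strand-keeping kit, per the labels' protocols. The authors deposited whole-number read counts per gene symbol, with no normalization, and a sample sheet. TopHat, DESeq2 and the human build hg19 are named in the submitters' processing notes although symbols are mouse, so the files' coordinates are not used. The sources used here do not name the counting tool, its strand setting or its handling of multiply mapped reads.

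Counts of 13101 genes kept by filterByExpr (count minimum 10) were fitted with edgeR 4.0.16 (R 4.3.3), TMM factors (0.961 to 1.03) and a prior count of 0.125. The quasi-likelihood F test compared 3 libraries titled FOXR2 with 3 titled Control, without covariate, and Benjamini-Hochberg adjustment ran over all tested genes. It was tested on simulated data. DESeq2 1.42.0, limma-voom 3.58.1, RLE and total-count scaling, no filter, a length and GC offset (mgcv 1.9.3, with values for 97.7% of tested genes), a replicate block and leaving out each library were alternatives. Ratios of 9 gene pairs used log2(CPM + 0.5). Libraries of the same title differed by more than sampling noise (median chi-square per gene 8.37 to 13.1), so none was counted as a duplicate. Floors cover counting error only.

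Members and the 7 companion and 8 marker lists were chosen with earlier results of these data known. All members are named, with library values for called genes, paired genes and the smallest adjusted p of each role group, and from each companion list the 3 smallest adjusted p and any call.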

Additional observations from a re-analysis of the deposited data

How the results depend on the processing

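Against 119 higher and 181 lower calls over all genes, DESeq2 gave 909 and 903 (13.9% of 13050 genes), total-count scaling 119 lower, and leaving out 1 library 1 to 123 higher and 0 to 82 lower. Members called higher were 1 in the edgeR test, 3 by DESeq2 (Kdm3a, Epas1 and Slc2a3) and 0 with RLE factors, total-count scaling, no low-count filter, the length and GC offset and limma-voom. Leaving out 1 library gave 0 to 0. The number of genes with an unadjusted p under 0.05 was 3107 to 3720 in those fits and 2241 to 3268 with 1 library left out. Replicate numbers did not pair the libraries: deviations of equal numbers correlated at -0.0161, -0.241 and -0.0104, and no library correlated best with its own number. The replicate block gave 0 higher and 0 lower calls over all genes and 0 members (2652 genes at unadjusted p under 0.05), and turned Pgk1 to -0.053 and P4ha2 to 0.059.

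Of 442 log2 fold changes of members under alternatives, 36 changed sign, in 16 members. With the length and GC offset Hif1a was -0.11, Aldoa 0.18 and Gapdh 0.24. Gapdh was 0.022 with RLE factors, 0.040 with total-count scaling and 0.022 by DESeq2, and Pgk1 was -0.042 by limma-voom. With 1 library left out the range was -0.058 to 0.27 for Hif1a, -0.073 to 1.00 for Egln1, -0.16 to 0.35 for Slc2a1, -0.37 to 0.50 for Gpi1, -0.10 to 0.57 for Pfkfb3, -0.52 to 0.21 for Aldoa, -0.042 to 0.59 for Tpi1, -0.26 to 0.32 for Gapdh, -0.38 to 0.30 for Pgk1, -0.14 to 0.62 for Pgam1, -0.29 to 0.038 for Pkm, -0.20 to 0.44 for Ldha, -1.06 to 0.030 for Pdk1, -0.41 to 1.00 for Bnip3, -0.10 to 0.59 for Bnip3l and -1.04 to 0.92 for P4ha2. Ratios ranged from -0.45 to 0.43 for Egln3/Egln1, -0.46 to 0.64 for Pfkp/Pfkl (-0.0031 with a pseudocount of 2), -0.17 to 0.37 for Bnip3/Bnip3l and -0.26 to 0.94 for P4ha1/P4ha2. Apart from the library left out, the cause was not tested. Members highest in FOXR2 replicate 1 were 22 or 23 and lowest in FOXR2 replicate 2 were 14 to 17 under 3 other scalings, added after seeing the data. The shares of all tested genes were 16.4% to 20.3% and 13% to 20.4% under the same scalings. Both shares were largest with the length and GC offset (20.3% and 20.4%), where 22 and 17 members had these patterns. Eno1 and Car9 lie too near the floor for a comparison.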

Other observations

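Stress genes driven by the transcription factor ATF4, which overlap the hypoxia response in Ddit4, had an order of libraries unlike that of the glycolytic genes. All 10 were tested and had a fitted difference below 0 (median -1.42 on the log2 scale), as had 6453 of all 13101 tested genes. None was called by edgeR, while 4 had an unadjusted p under 0.05, as had 24.9% of all tested genes. Atf4 was at 75.0, 120 and 126 CPM in FOXR2 replicates 1 to 3 and at 157, 647 and 242 CPM in Control replicates 1 to 3 (edgeR adjusted p = 0.111, DESeq2 0.00931). Trib3, a pseudokinase target of ATF4, was at 10.9, 14.8 and 22.5 CPM and at 17.5, 162 and 53.1 CPM (edgeR adjusted p = 0.124, DESeq2 0.00837). Ddit3, the stress factor CHOP, was at 33.7, 47.1 and 62.3 CPM and at 35.1, 403 and 151 CPM (edgeR adjusted p = 0.159, DESeq2 0.0208). Control replicate 2 held the highest level of each of the 10 genes. The median log2 deviation of the list from each gene's mean over the 6 libraries was 1.93 there. It was -0.17 and 0.06 in Control replicates 1 and 3, and -1.20, -0.52 and -0.30 in FOXR2 replicates 1 to 3. Control replicate 2 was also the library with the highest Adm.

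Immediate early genes, which respond to handling of tissue as well as to signalling, summed to 954, 1124 and 518 CPM in FOXR2 replicates 1 to 3 and to 513, 960 and 655 CPM in Control replicates 1 to 3. Of the 8, 7 had a fitted difference above 0 (median 0.46 on the log2 scale), where 6648 of all 13101 tested genes did. By edgeR none of the 8 was called or had an unadjusted p under 0.05. Nr4a1, Fos and Jun had log2 fold changes of 0.64 ± 0.32, 0.79 ± 0.49 and 0.42 ± 0.27.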
